A study of Mus musculus with 12 samples.

Results

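The respiratory chain of the mitochondrial inner membrane was examined through 39 of its genes in mouse embryonic stem cells. The 13 protein-coding genes of the mitochondrial genome and 26 nuclear genes for subunits of complexes I to IV were listed by symbol and matched to Ensembl identifiers in the deposited tables. All 39 were found among the 52661 genes of the count table, and all 39 were among the 21053 genes that passed the filter on low counts. The list holds 21 subunits of complex I (7 mitochondrial and 14 nuclear), 2 of complex II (both nuclear), 6 of complex III (1 and 5), 8 of complex IV (3 and 5) and the 2 mitochondrial subunits of ATP synthase, or complex V.

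Complexes I to IV pass electrons from NADH and succinate to oxygen, and complexes I, III and IV pump protons across the inner membrane, whose return through complex V drives ATP synthesis. The mitochondrial genome is read from both strands as long precursors that are cut at the tRNAs into mRNAs and rRNAs, whereas each nuclear subunit has its own promoter, so that 1 complex draws on both genomes. Pluripotent mouse cells in culture respire and also run glycolysis at a high rate.

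The cells were CGR8, a mouse embryonic stem cell line, kept with serum and leukemia inhibitory factor and stably transfected with a ppy-cagg-ires-puro vector, in which the CAG promoter drives the insert. The control group (n = 3) carried the empty vector. The other groups carried a netrin-1 transgene in that vector: the wild type (netrin-1 WT, n = 3), a point mutant named for the receptor Unc5b (unc5B MUT, n = 3) and a point mutant named for the receptor neogenin (neo1 MUT, n = 3). Total RNA was sequenced, and libraries are named by group and by the replicate number in their title. No label states that the libraries within a group stem from independent cultures or clones, so p-values reflect only how far these libraries scatter, which may be technical.

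Summed estimated counts ran from 22256195 to 59735737 per library, and the 4 number 3 libraries had the lowest totals (up to 24736421). Ntn1 was at 0.782 to 15.4 CPM (counts scaled to library size, with factors from the trimmed mean of M-values) in control libraries and at 34.9 to 322 CPM in the libraries of the transgene groups. The 8 markers of pluripotent cells summed to between 3178 and 4278 CPM in every library. The 8 fibroblast markers summed to 34.4 to 86.9 CPM, most of it from Fbln1. Values of single fibroblast markers were scaled to total counts without the factors from the trimmed mean of M-values, so they can exceed these sums. On that scale Fbln1 ran from 21.6 to 93.6, and Thy1 reached 9.26 and Col1a1 4.31. Col3a1, Postn, Dcn and Lum stayed at 0.315 or less on the same scale. The number 3 libraries stood apart from those numbered 1 and 2 over all genes, and no label states the meaning of the number. Comparisons of groups are therefore given without and with the replicate number in the model, called the unpaired and the paired fit.

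The mitochondrial members made up 1.496% to 3.82% of all counts in a library and the nuclear members 0.354% to 0.543%. Per kilobase of exon, over the 8 libraries numbered 1 and 2, the mitochondrial members had a median of 1358 CPM and the nuclear members a median of 49.5 CPM. The highest was mt-Co1, the catalytic core subunit of complex IV, at 5913 CPM per kilobase. The lowest of the mitochondrial members was mt-Nd3, a proton-pumping arm subunit of complex I, at 277 CPM per kilobase. Cox4i1, a subunit of complex IV, was the highest nuclear member at 333 CPM per kilobase, and Ndufb7, an accessory subunit of complex I, the lowest at 10.8 CPM per kilobase. Exon lengths join all annotated transcripts of a gene, which lowers these values most for nuclear genes with long rare transcripts, and mt-Nd3 shares reads with a nuclear copy described next. The span of Cox4i1 lies within that of Gm20388, a protein-coding gene on the same strand.

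Many of these genes have near-identical copies among the other annotated genes, and the deposited counts were divided between some members and their copies. By alignment of annotated transcripts (GENCODE M21, GRCm38), 23 copies with at least 95% identity were found for 15 members, 9 mitochondrial and 6 nuclear, and 10 of the copies reached 10 CPM in some library. Of these copies, 7 lie next to each other on chromosome 1 between positions 24611535 and 24616197, in a stretch of nuclear DNA that repeats part of the mitochondrial genome. Gm20538, counted as a copy of Ndufb8, is a protein-coding gene that overlaps it by 4260 bases on the same strand. Some copies held almost no counts, such as Gm10222 of mt-Nd4l with 0 CPM in every library. A pair that bears on several results was Cox6c (chromosome 15, 35925886 to 35938246, minus strand), a small nuclear subunit of complex IV, and its processed pseudogene Cox6c2 (chromosome 12, 56373593 to 56373823, minus strand). Their coding sequences are shown because a read can be told apart only where it covers 1 of 7 differing bases, printed in capitals, in 231 aligned bases:
Cox6c: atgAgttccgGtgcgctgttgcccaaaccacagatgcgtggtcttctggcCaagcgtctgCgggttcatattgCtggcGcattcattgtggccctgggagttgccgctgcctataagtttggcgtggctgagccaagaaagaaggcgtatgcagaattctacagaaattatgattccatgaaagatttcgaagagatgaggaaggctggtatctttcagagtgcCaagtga
Cox6c2: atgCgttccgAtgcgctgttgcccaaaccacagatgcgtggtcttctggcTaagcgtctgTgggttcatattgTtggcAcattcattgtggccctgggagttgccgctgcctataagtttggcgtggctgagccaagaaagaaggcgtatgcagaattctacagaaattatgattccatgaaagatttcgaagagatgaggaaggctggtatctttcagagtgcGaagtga
Counted from the A of the start codon, with the base of Cox6c first, the differences are A4C, G11A, C51T, C61T, C74T, G79A and C225G, so that 6 of the 7 lie in the first 79 bases. A second pair, mt-Nd3 and its chromosome 1 copy Gm28438, differs at 1 of 345 bases, T3C, near the 5′ end. Its first 43 bases are shown with that base in capitals:
mt-Nd3: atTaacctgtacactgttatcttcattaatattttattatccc
Gm28438: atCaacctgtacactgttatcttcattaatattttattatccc
Gm10925, the chromosome 1 copy of mt-Atp6, is identical to it over 678 bases and is not printed.

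**Figure D1:**
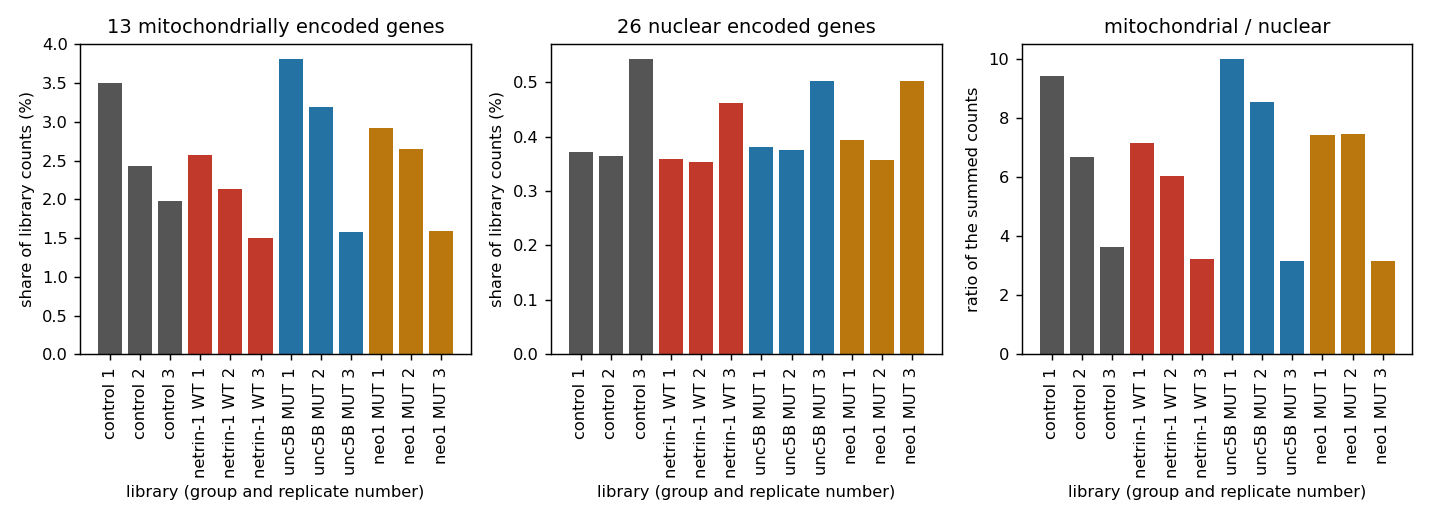
Share of each library's estimated counts that fell on the 13 mitochondrial members (left, %) and on the 26 nuclear members (middle, %), and the ratio of these sums (right), with 1 bar per library and 1 colour per group. The ratio is 3.15 to 3.64 in the number 3 libraries and 6.02 to 10.001 in the others.

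Between groups, no member passed the threshold (edgeR quasi-likelihood test, adjusted p under 0.05) in any of the 6 unpaired comparisons. This edgeR fit called few genes of any kind: 0.0997% of all genes tested were called for netrin-1 WT against control, 0% for unc5B MUT against control, 0.128% for neo1 MUT against control, 0% for unc5B MUT against netrin-1 WT, 0.076% for neo1 MUT against netrin-1 WT and 0.133% for neo1 MUT against unc5B MUT. At an unadjusted p under 0.05 the edgeR test gave 1 member in each of the first 4 of these comparisons and 0 in the last 2; it was Uqcrfs1 in the 3 comparisons with control and mt-Atp6 for unc5B MUT against netrin-1 WT. DESeq2 also called 0 members, where it called 1.65%, 0.0522%, 2.01%, 0.864%, 1.07% and 1.79% of all genes in the 6 comparisons in that order, and limma-voom called 0 members and 0.123%, 0%, 0.18%, 0%, 0.076% and 0.133% of all genes. In the paired fit, 4 comparisons gave calls. Cox6c and Uqcrfs1 were lower in netrin-1 WT than in control (2 of 39 members; 3.5% of all genes were called, 1.76% as lower). Both were also lower in neo1 MUT than in control (2 of 39; 5.26% of all genes called, 3.3% as lower). Cox6c and mt-Atp6 were higher in unc5B MUT than in netrin-1 WT (2 of 39, with 1.97% of all genes called, 1% as higher), and Cox6c was lower in neo1 MUT than in unc5B MUT (1 of 39, with 4.87% of all genes called, 3.28% as lower). No member was called for unc5B MUT against control (0.0285% of genes called, 2 members at an unadjusted p under 0.05) or neo1 MUT against netrin-1 WT (1.99% called, 5 members at an unadjusted p under 0.05). A count of at most 2 among 39 members is too small to set apart from these background shares, and comparisons with 1 group in common share that group's libraries.

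Uqcrfs1 (chromosome 13, 30540308 to 30545362, minus strand) encodes the Rieske iron-sulfur protein, which hands electrons from ubiquinol to cytochrome c1 in complex III. Its level was 161, 152 and 115 CPM in control libraries 1 to 3, 106, 103 and 72.3 CPM in netrin-1 WT, 102, 98.5 and 77.8 CPM in unc5B MUT, and 98.3, 116 and 71.1 CPM in neo1 MUT. Within each number the control library was the highest of the 4, and the number 3 library was the lowest of each group. Taken over all numbers, the control libraries lay above all netrin-1 WT and all unc5B MUT libraries, a separation seen in 9.23% and 4.38% of all genes for these comparisons, and overlapped with neo1 MUT. Group means were 143 ± 24.2 CPM in control, 93.8 ± 18.7 in netrin-1 WT, 92.7 ± 13.02 in unc5B MUT and 95.1 ± 22.6 in neo1 MUT (SD, n = 3 each).

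The log2 fold change of Uqcrfs1 in the paired fit was -0.61 ± 0.10 (SE) for netrin-1 WT against control, with an edgeR adjusted p of 0.00978 (unpaired 0.729). For neo1 MUT against control it was -0.60 ± 0.10 with an adjusted p of 0.0106 (unpaired 0.615). For unc5B MUT against control it was of like size, -0.62 ± 0.10, and missed the threshold at an adjusted p of 0.146, in a comparison that called 6 genes in all. Between the transgene groups the paired log2 differences of Uqcrfs1 were -0.01 to 0.02. The paired call of Uqcrfs1 for netrin-1 WT against control was lost without control 1 (adjusted p = 0.0639) and without netrin-1 WT 2 (0.0623), and that for neo1 MUT against control without control 1 (0.0634) and without neo1 MUT 1 (0.0573), while the log2 fold change stayed between -0.70 and -0.55. In bulk RNA, fewer cells of a type and less RNA per cell cannot be told apart, here and in all results that follow.

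Cox6c was at 288 and 256 CPM in control libraries 1 and 2, 178 and 192 CPM in netrin-1 WT, 278 and 275 CPM in unc5B MUT, and 183 and 186 CPM in neo1 MUT. In the number 3 libraries of these groups, in that order, it was at 142, 101, 124 and 80.2 CPM, below every library numbered 1 or 2. Cox6c2 showed the reverse: it had at most 0.0239 CPM in the libraries numbered 1 and 2, and 150.4, 99.4, 133 and 83.7 CPM in those numbered 3, which is 49.5% to 51.8% of the counts of the pair.

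With the counts of Cox6c2 and of a second copy, Gm16399, added, Cox6c came to 292, 201, 257 and 164 CPM in the number 3 libraries, within the range of the others. The summed level was 279 ± 19.7 CPM in control, 190.2 ± 11.5 in netrin-1 WT, 270.0 ± 11.6 in unc5B MUT and 178 ± 12.1 in neo1 MUT (SD, n = 3 each). All control and unc5B MUT libraries, from 256 CPM up, lay above all netrin-1 WT and neo1 MUT libraries, which went up to 201 CPM. Without the copies, these groups overlapped. Of all genes, 9.23% separated control from netrin-1 WT and 11.4% control from neo1 MUT. The shares were 9.42% for unc5B MUT and netrin-1 WT and 11.8% for unc5B MUT and neo1 MUT.

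In the paired fit, Cox6c alone had a log2 fold change of -0.53 ± 0.11 for netrin-1 WT against control (edgeR adjusted p = 0.0242) and of -0.64 ± 0.11 for neo1 MUT against control (0.00957). It was 0.48 ± 0.11 for unc5B MUT against netrin-1 WT (0.0498) and -0.60 ± 0.11 for neo1 MUT against unc5B MUT (0.0146). For unc5B MUT against control it was -0.05 ± 0.11, and for neo1 MUT against netrin-1 WT -0.11 ± 0.11; neither passed. With the copies added, a step chosen after seeing the data, the paired values for the 4 called comparisons were -0.55, -0.65, 0.50 and -0.60, with adjusted p of 0.0175, 0.00788, 0.0376 and 0.0127. The merged paired fit called 2, 2, 1 and 1 members in these comparisons, with 3.53%, 5.28%, 1.97% and 4.89% of all genes called, and 0 members in the other two (0.0285% and 1.99%), where the edgeR test gave 2 and 4 members at an unadjusted p under 0.05. In the unpaired fit with copies added the SE of Cox6c for netrin-1 WT against control was 0.15, against 0.44 without them, and none of these 4 comparisons passed (adjusted p of 0.36, 0.191, 0.652 and 0.285).

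Single libraries decided several of the paired calls of Cox6c without copies. Its call for netrin-1 WT against control was lost without control 1 (adjusted p = 0.112), netrin-1 WT 1 (0.131) or netrin-1 WT 2 (0.105), and that for neo1 MUT against control without control 1 (0.0581). For unc5B MUT against netrin-1 WT it passed on leaving out netrin-1 WT 3 (0.0186), and not on leaving out any of the other 5 libraries (0.11 to 0.248). For neo1 MUT against unc5B MUT it was lost without neo1 MUT 1 (0.0543), neo1 MUT 3 (0.0653), unc5B MUT 1 (0.114) or unc5B MUT 2 (0.0916). The direction of Cox6c held in each of these fits.

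**Figure D2:**
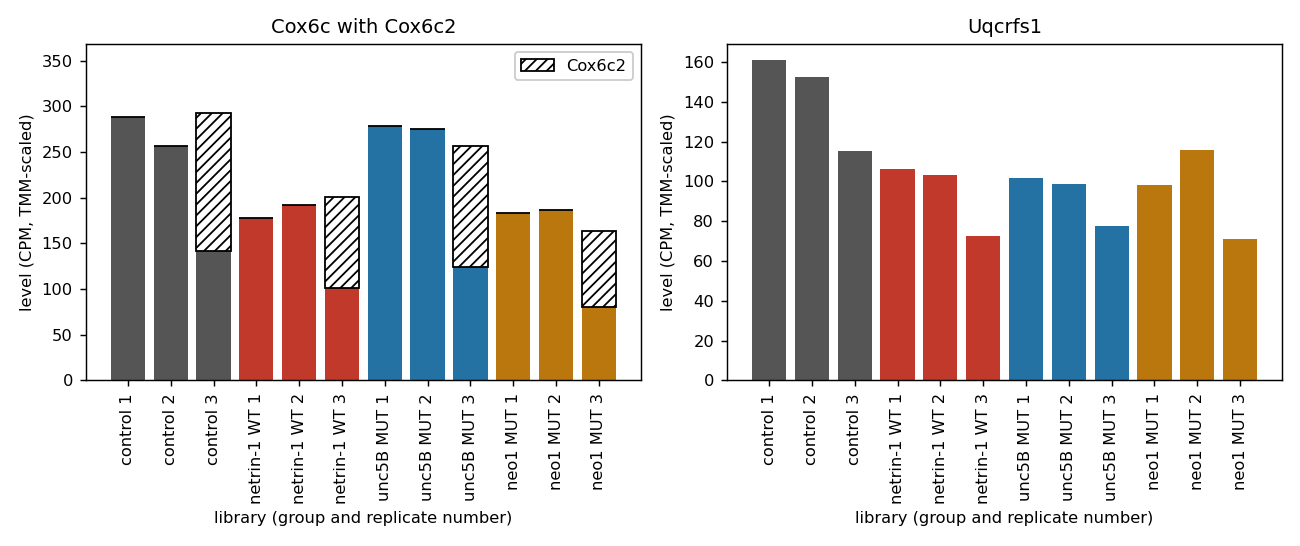
Level of Cox6c with its copy Cox6c2 stacked on it (left, hatched) and of Uqcrfs1 (right), in CPM, with 1 bar per library and 1 colour per group. The Cox6c2 part is visible in the number 3 libraries and nowhere else, and the stacked bars of netrin-1 WT and neo1 MUT stay at or under 201 CPM while those of control and unc5B MUT reach at least 256 CPM.

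Other measures also differed between the groups. The 8 primitive endoderm markers, genes of the extraembryonic lineage that arises from the inner cell mass, summed to 363 to 457 CPM in control and 205 to 255 CPM in unc5B MUT, and to 43.9 to 54.4 CPM in netrin-1 WT and 33.3 to 88.1 CPM in neo1 MUT, with none at 0 in any library. In the paired fit 8 of 8 were lower in netrin-1 WT and in neo1 MUT than in control, and 8 of 8 were higher in unc5B MUT than in netrin-1 WT. Of all genes, that fit called 1.76% lower in netrin-1 WT than in control and 3.3% lower in neo1 MUT than in control. It called 1% higher in unc5B MUT than in netrin-1 WT. The markers of 2-cell-like cells summed to 2.57 to 8.74 CPM in control, 28.2 to 35.8 in netrin-1 WT, 4.45 to 12.3 in unc5B MUT and 4.56 to 42.4 in neo1 MUT. Chromosome 15, which holds Cox6c and Cyc1, had 805 tested genes. Their median log2 fold change in the paired fit was -0.29 for netrin-1 WT, -0.40 for neo1 MUT and 0.05 for unc5B MUT, each against control. It was 0.31 for unc5B MUT against netrin-1 WT, -0.12 for neo1 MUT against netrin-1 WT and -0.44 for neo1 MUT against unc5B MUT. The medians of all genes were within 0.02 of 0. Against control, 59 of the 805 genes were called lower and 2 higher in netrin-1 WT, and 129 lower and 5 higher in neo1 MUT. For neo1 MUT against unc5B MUT, 140 were called lower and 2 higher. The part of these markers and of chromosome 15 in the results for Cox6c and Cyc1 was not tested. Chromosome 13, which holds Uqcrfs1, had medians of -0.04 to 0.04 in all 6 comparisons.

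Cyc1, the cytochrome c1 of complex III and the other member on chromosome 15, passed in none of the paired comparisons. It was at 293, 257 and 626 CPM in unc5B MUT libraries 1 to 3 and at 217, 133 and 391 CPM in neo1 MUT, lower in neo1 MUT within each number. The paired log2 fold change was -0.67 ± 0.18 with an edgeR adjusted p of 0.0566, and it passed without neo1 MUT 1 (0.0456). The authors' deposited table lists Cyc1 at -0.68 with an adjusted p of 0.0374 for this comparison. That table also lists Cox6c and Uqcrfs1 as lower in netrin-1 WT than in control (2 members, with 4.42% of its genes called, 2.31% as lower) and in neo1 MUT than in control (2 members, 5.52% called, 3.6% as lower), and Uqcrfs1 as lower in unc5B MUT than in control (1 member, 0.0491% called, 0.0197% as lower). It lists Cox6c and mt-Atp6 as higher in unc5B MUT than in netrin-1 WT (2 members, 3.07% called, 1.63% as higher), Cox6c and Cyc1 as lower in neo1 MUT than in unc5B MUT (2 members, 6.36% called, 4.17% as lower) and no member for neo1 MUT against netrin-1 WT (2.19% called).

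mt-Atp6 (mitochondrial genome, 7927 to 8607) encodes subunit a of ATP synthase, which forms the proton channel with the ring of c subunits. Its own row held 2374, 1949 and 2186 CPM in control libraries 1 to 3, 1583, 1502 and 1559.9 CPM in netrin-1 WT, 2860.4, 2309 and 1869 CPM in unc5B MUT, and 2439, 1932 and 1747 CPM in neo1 MUT. The 3 netrin-1 WT libraries were the lowest of the 12 and did not overlap with any other group. Such a separation was seen in 9.23% of all genes against control, 9.42% against unc5B MUT and 8.28% against neo1 MUT. Gm10925, which no read can tell from mt-Atp6 within the 678 identical bases, held 989.6 CPM in netrin-1 WT 1, from 187 to 647 CPM in the other libraries numbered 1 and 2, and at most 4.55 CPM in those numbered 3.

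For unc5B MUT against netrin-1 WT the paired log2 fold change of mt-Atp6 was 0.58 ± 0.12, with an edgeR adjusted p of 0.0368 (unpaired 0.863). With Gm10925 added, netrin-1 WT 1 came to 2572 CPM, the groups overlapped, and the paired value was 0.44 ± 0.12 with an adjusted p of 0.0852, past the threshold no longer. Without copies, the paired call of mt-Atp6 held on leaving out netrin-1 WT 3 (0.0137) or unc5B MUT 3 (0.0424) and on leaving out no other library (0.157 to 0.212). For netrin-1 WT against control mt-Atp6 was at -0.48 ± 0.12 (adjusted p = 0.0531) and passed without netrin-1 WT 3 (0.0225), and with the copy it was at -0.28 ± 0.12 (0.23).

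**Figure D3:**
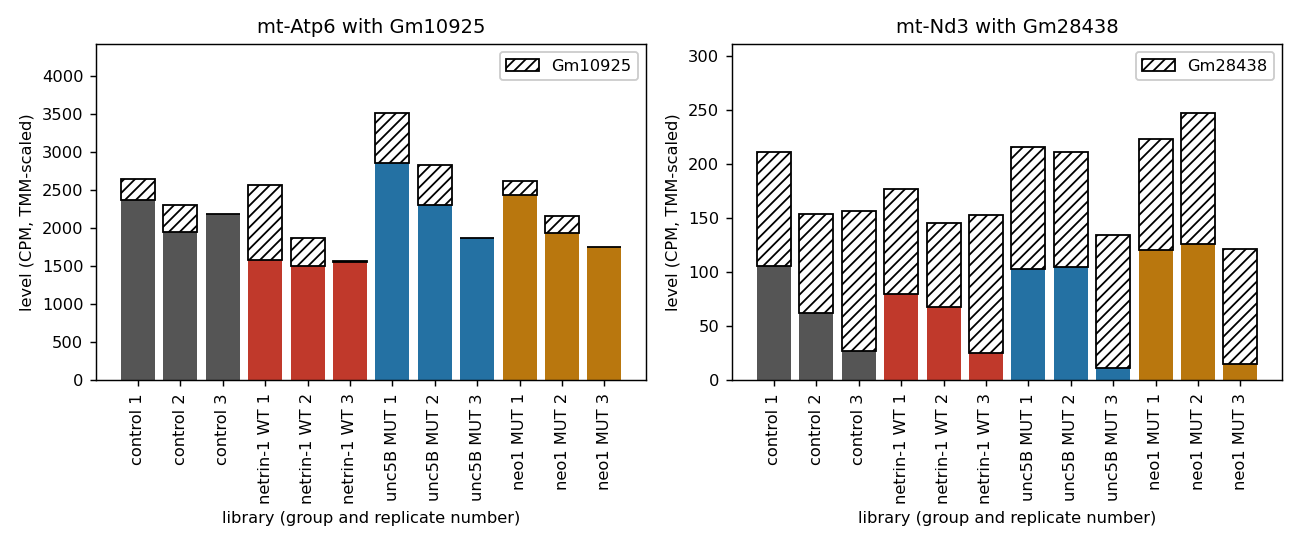
Level of mt-Atp6 with Gm10925 (left) and of mt-Nd3 with Gm28438 (right), in CPM, with the nuclear copy hatched on top, 1 bar per library and 1 colour per group. The copy takes up to 38.5% of the mt-Atp6 pair in 1 library and at most 0.291% in the number 3 libraries, and 82.6% to 91.4% of the mt-Nd3 pair in the number 3 libraries.

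Of the mitochondrial members only mt-Atp6 was called in a paired group comparison of all libraries. For unc5B MUT against netrin-1 WT, the paired fit put 13 of 13 above 0 (median log2 fold change 0.45) and 23 of 26 nuclear members (median 0.12), where the median of all genes was 0.01. The mitochondrial median between libraries of 1 number was 0.60, 0.62 and 0.11 for numbers 1 to 3, and 7 of the 13 members were higher in all 3 numbers. Single libraries changed the number of calls. Without netrin-1 WT 3 the paired fit called 9 members higher in unc5B MUT than in netrin-1 WT, with 8.29% of all genes called: mt-Nd1, mt-Nd2, mt-Nd4 and mt-Nd4l of complex I, mt-Cytb of complex III, mt-Atp6, and the nuclear Ndufb7, Cyc1 and Cox6c. Without unc5B MUT 3 the fit called 3 members (mt-Co1, mt-Co2 and mt-Atp6), with 0.48% of all genes called.

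For netrin-1 WT against control, 13 of 13 mitochondrial members were below 0 with a paired median of -0.26, and 22 of 26 nuclear members with a median of -0.13. None of the 13 passed in the paired fit of all libraries, and without netrin-1 WT 3 the calls were 6 members, all lower in netrin-1 WT: mt-Nd1, mt-Nd2, mt-Nd4, mt-Atp6, Uqcrfs1 and Cox6c (8.43% of all genes called). For neo1 MUT the mitochondrial medians were -0.13 against control, 0.17 against netrin-1 WT and -0.29 against unc5B MUT, and for unc5B MUT against control 0.14. The nuclear medians of these 4 comparisons lay between -0.02 and 0.09.

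The mitochondrial core genes show how wide the spread was. mt-Co1 was at 12616, 7366 and 8230.0 CPM in control libraries 1 to 3, 7367, 6564 and 5049 CPM in netrin-1 WT, 13058, 9946 and 6369 CPM in unc5B MUT, and 8613, 7561 and 6431 CPM in neo1 MUT. All groups overlapped in this row, and the lowest control library lay just below the highest netrin-1 WT library. With the counts of its copies added, control went down to 7932 CPM and netrin-1 WT up to 7829 CPM, with no overlap. Such a separation was seen in 9.23% of all genes for these groups. The other pairs of groups still overlapped. Without copies, the paired log2 fold change of mt-Co1 was -0.56 ± 0.14 for netrin-1 WT against control (edgeR adjusted p = 0.0603). It was 0.59 ± 0.14 for unc5B MUT against netrin-1 WT (0.0629), so both fell short of the threshold. With copies added, mt-Co1 was called in neither comparison. mt-Nd1, a core subunit of complex I near the ubiquinone site, was at 1295, 961 and 1665 CPM in netrin-1 WT and at 2389, 1755 and 1472 CPM in unc5B MUT, so the order of these groups turned around in number 3. mt-Cytb, the cytochrome b of complex III, ran from 1094 to 1619.6 CPM in netrin-1 WT and from 1563 to 2021 CPM in unc5B MUT. mt-Nd6, the complex I subunit encoded on the other strand, was at 378, 425 and 324 CPM in control libraries 1 to 3, 433, 361 and 216 CPM in netrin-1 WT, 585, 556 and 240.3 CPM in unc5B MUT, and 603, 353 and 217 CPM in neo1 MUT, with overlap between all groups.

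None of the nuclear representatives Cox4i1, Ndufs1, Ndufv1, Sdha and Uqcrc1 passed in any paired comparison. Cox4i1 was at 499.998 and 467 CPM in control libraries 1 and 2, 503 and 488 CPM in netrin-1 WT, 571 and 527 CPM in unc5B MUT, and 551 and 519 CPM in neo1 MUT, and its number 3 libraries were at 721, 516, 684 and 665 CPM in that order. All unc5B MUT and neo1 MUT libraries lay above all netrin-1 WT libraries, a separation that 9.42% and 8.28% of all genes showed in these comparisons. Cox4i1 shares 5986 bases of its span with Gm20388, and how reads were divided between these genes was not examined. Ndufs1 stayed between 127 and 153 CPM in the 8 libraries numbered 1 and 2, Ndufv1 between 126 and 176 CPM, Sdha between 176 and 247 CPM and Uqcrc1 between 236 and 297 CPM. Over all 3 numbers the groups overlapped in each of these 4 genes. Within numbers 1 and 2 some groups did not, such as control (153 and 143 CPM) and netrin-1 WT (128 and 133 CPM) for Ndufs1. The share of all genes that separate in 2 libraries against 2 was not counted.

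The summed level of the mitochondrial members over that of the nuclear members was 6.58 ± 2.90 in control, 5.47 ± 2.01 in netrin-1 WT, 7.23 ± 3.60 in unc5B MUT and 6.01 ± 2.47 in neo1 MUT (SD, n = 3 each). All 6 pairs of groups overlapped in this ratio. Whether a change against control differed between number 3 and the other numbers was tested as an interaction. No member passed for netrin-1 WT (0.019% of all genes called), unc5B MUT (0.0095%) or neo1 MUT (0.00475%). At an unadjusted p under 0.05 the same edgeR test gave 2 members (mt-Nd1 and Cox4i1), 3 members (mt-Nd3, mt-Nd5 and mt-Nd6) and 1 member (mt-Nd3).

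**Figure D4:**
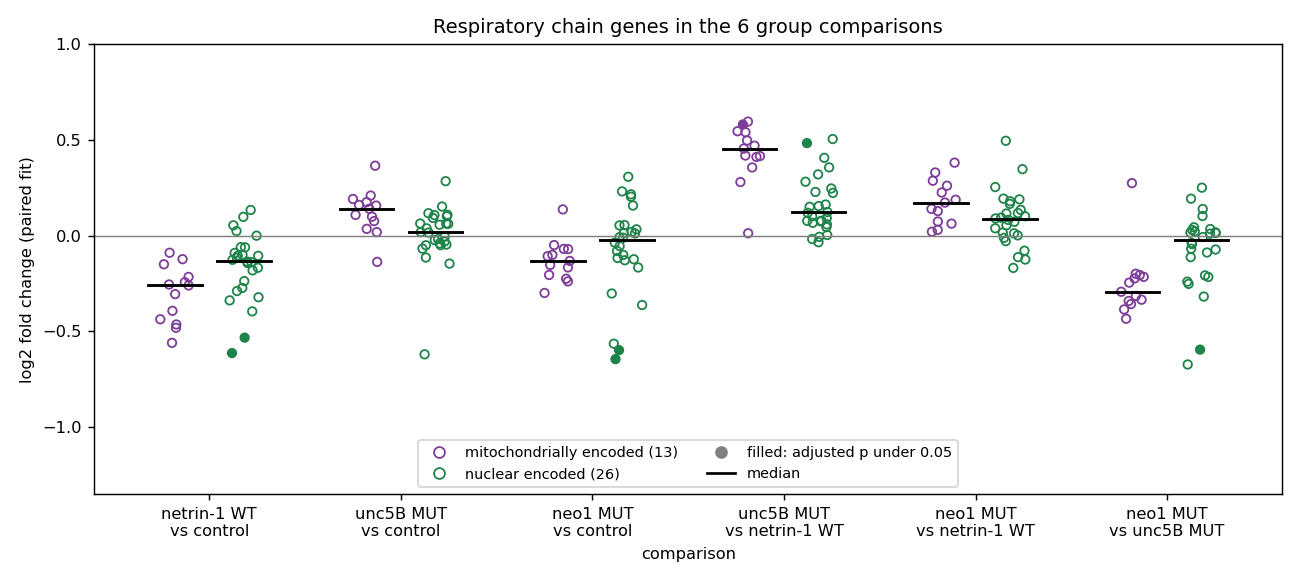
Log2 fold change of each member in the paired fit of the 6 group comparisons, mitochondrial and nuclear members side by side, with filled points for an adjusted p under 0.05 and a black line at the median. The mitochondrial median is highest for unc5B MUT against netrin-1 WT (0.45), and 4 of the 6 comparisons hold at least 1 filled point.

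Far more members were called between replicate numbers than between groups. In number 3 against numbers 1 and 2, 31 of 39 members were called (79.5%), where 62.8% of all genes were. Of the mitochondrial members 7 were lower, 2 higher and 4 not called, and of the nuclear members 18 were higher, 4 lower and 4 not called, where 31.8% of all genes were called higher and 31% lower. The median log2 fold change was -0.46 over the mitochondrial members, 0.44 over the nuclear members and -0.04 over all genes; with no filter on low counts the median of all genes shifted to -0.17, and those of the members to -0.52 and 0.38. The share of counts on mitochondrial members was 1.496% to 1.98% in the number 3 libraries and 2.13% to 3.82% in the others, and that on nuclear members 0.462% to 0.543% against 0.354% to 0.393%, with no overlap in either.

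Complex I and complex II held the largest differences. Ndufa10, an accessory subunit of complex I, was at 763, 618, 712 and 687 CPM in the number 3 libraries (control first, then netrin-1 WT, unc5B MUT and last neo1 MUT), and at 57.2 to 94.8 CPM in the other 8, with no overlap. Its log2 fold change was 3.21 ± 0.10 (edgeR adjusted p = 6.7e-10), and 6.58% of all genes changed by more. Sdha, the flavoprotein of complex II that oxidises succinate, was at 1187, 858, 1145 and 1346 CPM in those libraries and at 176 to 247 CPM in the others, a log2 fold change of 2.52 ± 0.09 (adjusted p = 3.1e-09). Ndufv1, the complex I subunit that binds NADH, was at 363 to 393 CPM against 126 to 176 CPM, and Ndufs1, the large iron-sulfur subunit next to it, at 195 to 221 CPM against 127 to 153 CPM. Both rose, by 1.37 ± 0.07 and 0.59 ± 0.07 on the log2 scale. Sdhb, the iron-sulfur partner of Sdha, rose by 0.26 ± 0.08, far less than Sdha.

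In complex III, Uqcrc1, a core protein, was at 461 to 608 CPM in number 3 and at 236 to 297 CPM in the others, and Uqcrc2 and Cyc1 were called higher too. Uqcrb (-0.52 ± 0.10) and Uqcrfs1 (-0.48 ± 0.08) were called lower, so the 5 nuclear subunits of 1 complex moved both ways. In complex IV, Cox4i1 (0.32 ± 0.08), Cox5b (1.11 ± 0.09) and Cox7c (0.64 ± 0.08) were called higher and Cox5a (0.02 ± 0.09) was not called. Cox6c was called lower at -1.04 ± 0.08, and with its copies added it was at -0.01 with an edgeR adjusted p of 0.90. For Cox7c the copies widened the difference, from 0.64 to 1.74, since Gm12338, identical to it over 192 bases, held 4.13 to 11.1 CPM in libraries 1 and 2 and 330.1 to 374 CPM in number 3.

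Among the mitochondrial members, the 2 that were higher in number 3 were the 2 shortest. mt-Atp8 (mitochondrial genome, 7766 to 7969, 204 bases), subunit 8 of ATP synthase, was at 1284, 931, 1122 and 1031 CPM in number 3 and at 191 to 403 CPM in the others, a log2 fold change of 1.97 ± 0.14 (edgeR adjusted p = 5.1e-07). mt-Nd4l (297 bases) of complex I was at 0.52 ± 0.10. The 2 genes overlap their downstream neighbours on the same strand, mt-Atp6 and mt-Nd4, so that reads of the overlap belong to both. The whole mt-Atp8 sequence is shown with the 43 bases that also open mt-Atp6 in capitals:
mt-Atp8: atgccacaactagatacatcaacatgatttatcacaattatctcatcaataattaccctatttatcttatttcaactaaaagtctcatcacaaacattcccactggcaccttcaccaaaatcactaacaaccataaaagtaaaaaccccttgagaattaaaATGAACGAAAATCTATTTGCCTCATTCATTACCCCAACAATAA
The 22 mitochondrial tRNAs, shorter still, summed to 239 to 378 CPM in number 3 and 19.4 to 55.0 CPM in the others, with 19 of 20 tested called higher and the remaining one, mt-Tp, called lower (-0.75 ± 0.28, edgeR adjusted p = 0.0363). The 2 mitochondrial rRNAs summed to 283 to 423 CPM against 688 to 1564 CPM, and both were called lower. Of all genes, 31.8% were called higher and 31% lower in number 3. The part of gene length in these differences was not tested.

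mt-Nd3 was the member with the largest fall, at 27.2, 24.9, 11.5 and 15.2 CPM in number 3 and 62.4 to 126 CPM in the others, a log2 fold change of -2.27 ± 0.29 (edgeR adjusted p = 4.5e-05). Its copy Gm28438 held 106 to 129 CPM in number 3 and 77.3 to 121 CPM in the others. Summed, the pair was at 122 to 157 CPM against 145 to 247 CPM, and its log2 fold change was -0.46 with an adjusted p of 0.015, near the median of the mitochondrial members. mt-Nd6, the only mitochondrial member on the minus strand, fell by 0.88 on the log2 scale (216 to 324 CPM against 353 to 603 CPM). mt-Nd5, mt-Co3, mt-Nd4, mt-Co1 and mt-Nd2 fell by between 0.77 and 0.46 on the log2 scale, without copies. Gm28439, a copy of mt-Nd4, held 17.9% to 21.4% of that pair in number 3 and 6.93% to 10.9% in the others. Gm29216, a copy of mt-Co1, went the other way, with at most 1.07% of its pair in number 3 and up to 7.12% in the others. mt-Cytb (0.00 ± 0.08, and -0.054 with no filter on low counts), mt-Nd1 (-0.11 ± 0.14), mt-Co2 (-0.24 ± 0.11) and mt-Atp6 (-0.18 ± 0.09) were not called; with Gm10925 added, mt-Atp6 was at -0.46 and was called (adjusted p = 0.00094). With all copies added, 32 members were called, again with 62.8% of all genes.

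**Figure D5:**
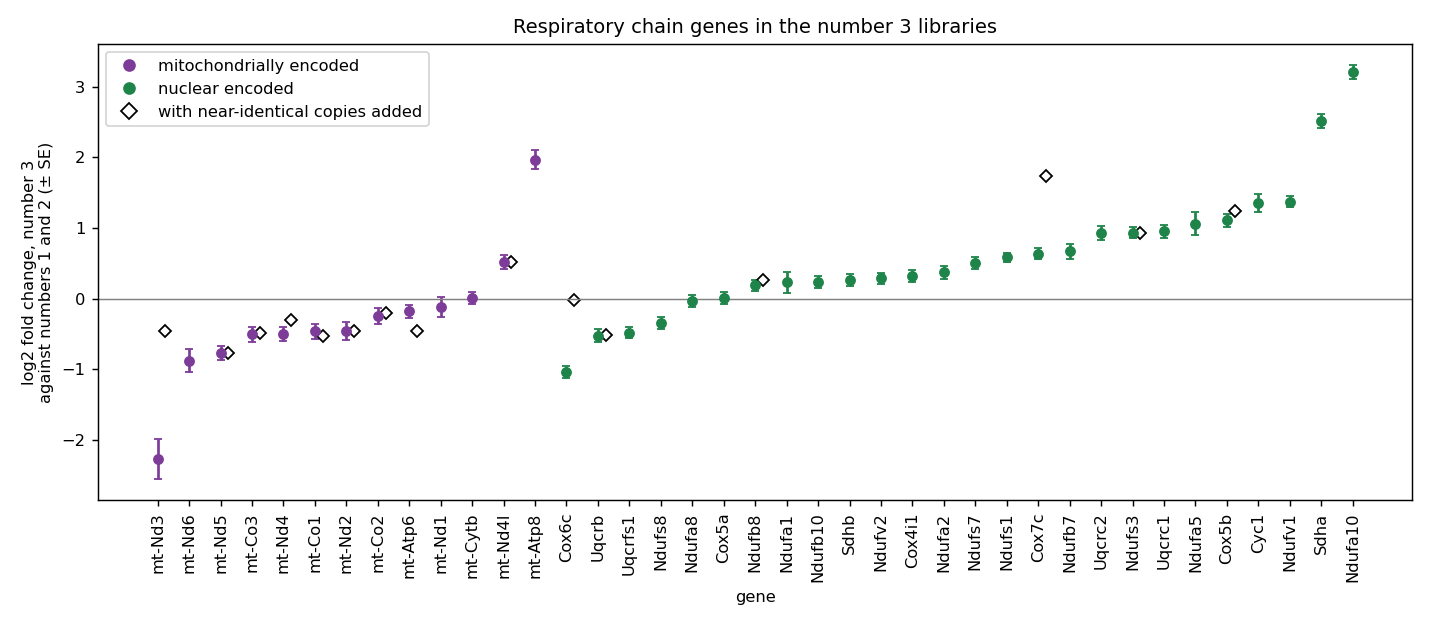
Log2 fold change of each member in the number 3 libraries against those numbered 1 and 2 (points, with bars of 1 SE), ordered within the mitochondrial and the nuclear members, with open diamonds for the value after near-identical copies were added. Ndufa10 (3.21) and Sdha (2.52) are the highest, and the diamonds of mt-Nd3, Cox6c and Cox7c lie far from their points.

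The rest of the pathway was read from lists of 35 other nuclear subunits of complexes I to IV, 15 nuclear ATP synthase subunits, 40 assembly factors and 15 genes of mitochondrial DNA transcription and replication, all of them tested. In the paired fit of netrin-1 WT against control, 2 of the 35 other subunits were called higher and 0 lower: Ndufc1 (0.87 ± 0.14, edgeR adjusted p = 0.00681) and Ndufb5 (0.77 ± 0.12, 0.00822), both accessory subunits of complex I. That comparison called 3.5% of all genes. Both were lower in neo1 MUT than in netrin-1 WT, Ndufc1 by -0.81 ± 0.14 and Ndufb5 by -0.83 ± 0.12. Acad9, an assembly factor of complex I, showed the same order: 0.53 ± 0.12 for netrin-1 WT against control and -1.01 ± 0.12 for neo1 MUT against netrin-1 WT. The latter comparison called 1.99% of all genes. Whether Ndufc1, Ndufb5 and Acad9 changed together with their neighbours on the chromosome was not tested. A further list of electron carriers and tissue-restricted isoforms had 8 of 10 genes tested and 1 call in each of 4 comparisons. Cox6b2, a complex IV subunit best known from testis, was higher than in control in netrin-1 WT (0.86 ± 0.17) and in neo1 MUT (0.74 ± 0.17). Cox7b2, another complex IV isoform, was lower in neo1 MUT than in netrin-1 WT (-2.56 ± 0.48) and than in unc5B MUT (-2.35 ± 0.48). In the order given, these 4 comparisons called 3.5%, 5.26%, 1.99% and 4.87% of all genes.

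For neo1 MUT against control, 1 of 35 other subunits (Ndufa6, -0.46 ± 0.11), 2 of 40 assembly factors (Cox14, -0.60 ± 0.11, and Acad9, -0.48 ± 0.12) and 1 of 15 genes of mitochondrial transcription and replication (the helicase Supv3l1, -0.55 ± 0.13) were called, all lower. This comparison called 5.26% of all genes, 3.3% as lower. Of the ATP synthase subunits 1 of 15 was called for unc5B MUT against netrin-1 WT (Atp5l, 0.49 ± 0.10) and 2 of 15 for neo1 MUT against unc5B MUT (Atp5g2, -0.85 ± 0.21, and Atp5l, -0.43 ± 0.10). These comparisons called 1.97% and 4.87% of all genes. For unc5B MUT against control none of these 4 lists had a call, where 0.0285% of all genes were called. Such small counts cannot be set apart from these shares. The part of chromosomal position in these calls was not tested. In number 3 against numbers 1 and 2 15 of 35 other subunits were called higher and 8 lower, 9 of 15 ATP synthase subunits higher and 2 lower, 18 of 40 assembly factors higher and 5 lower, and 6 of 15 genes of mitochondrial DNA transcription and replication higher and 5 lower, where 31.8% of all genes were called higher and 31% lower. The median log2 fold changes of these lists were 0.10, 0.24, 0.23 and 0.16.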

How the data were processed

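The members, gene lists and tests were chosen with earlier results of these data known. The authors deposited a table of estimated counts, which need not be whole, for 12 libraries; the estimating program and the use of strand are not given in the sources used here. The submitters' processing notes name FastQC 0.11.5, STAR 2.5.2b, R 3.3.2, Bowtie, Bowtie2 and DESeq2, and the builds GRCh38, GRCm38.p5 and mm10. Counts, which the design had taken for whole numbers, were rounded. All 12 libraries entered 1 edgeR 4.0.16 fit (R 4.3.3; limma 3.58.1) with TMM scaling, the filterByExpr filter, the quasi-likelihood F-test and Benjamini-Hochberg adjustment over 21053 genes at 0.05; the SE is the absolute log2 fold change over the root of F. The fit had been tested on simulated data. The paired fit adds the replicate number. Deviations from the group mean were correlated between libraries of equal number (0.58 to 0.88), positive between numbers 1 and 2 (0.49 to 0.76) and negative between number 3 and another (-0.83 to -0.60). Deviations of 3 libraries sum to 0, so a difference of number 3 alone gives these signs, and whether numbers 1 and 2 pair the libraries is not settled; the numbers come from the titles. The contrast of number 3 is from the paired fit. Per the file headers, the authors' deposited table of comparisons gives a log2 fold change, a signed fold score and p-values before and after adjustment; the log2 values and adjusted p-values were copied. The deposited normalized table was not used. Named genes were those called in any fit, fixed representatives of each complex and the largest changes of number 3. Copies needed at least 95% identity over at least 50% of the copy. Alternatives were RLE factors, mitochondrial genes out of the scaling, 2 other filters, DESeq2 1.42.0, limma-voom, 2 groups only, numbers 1 and 2 only, copies merged and each library left out. An exact permutation test of 3 against 3 libraries cannot go below 0.1.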

Additional observations from a re-analysis of the deposited data

How the results depend on the processing

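Of the member results recomputed under another setting, 476 kept their direction and their side of the threshold, 51 came to pass it, 12 changed sign and 1 no longer passed, and of the counts and medians 450 stayed within the limits set and 63 moved. Without the replicate number the 4 comparisons with calls had 0 members; with the replicate block they had 2 (netrin-1 WT against control), 2 (neo1 MUT against control), 2 (unc5B MUT against netrin-1 WT) and 1 (neo1 MUT against unc5B MUT), and with copies also merged 2, 2, 1 and 1. With numbers 1 and 2 only, the counts were 2, 1, 1 and 1, with 4.22%, 2.76%, 2.03% and 2.32% of all genes called. With 1 library left out at a time, the paired counts ran from 0 to 6, 2, 9 and 1 in that order. The fits with these highest counts called 8.43%, 1.5% to 5.03%, 8.29% and 1.5% to 2.25% of all genes. The count was 3 on leaving out control 2 (1.12% of all genes called) or unc5B MUT 3 (0.48%). For neo1 MUT against netrin-1 WT it ran from 0 to 1, with 0.921% called without neo1 MUT 2 and 1.72% without netrin-1 WT 3. Fewer libraries enter these fits. The nuclear median of number 3 was 0.47 with RLE factors or DESeq2 and 0.38 with no filter on low counts, where mt-Cytb was at -0.054. Cox6c for unc5B MUT against control was at 0.014 with numbers 1 and 2 only.

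The same leave-out fits moved the medians, most widely without the replicate number. The mitochondrial median ran from -0.45 to -0.20 for netrin-1 WT against control (paired -0.42 to -0.17, with -0.20 without netrin-1 WT 1), from -0.31 to 0.046 for neo1 MUT against control and from -0.51 to -0.070 for neo1 MUT against unc5B MUT. It ran, for unc5B MUT against control, from -0.068 (without unc5B MUT 1) to 0.34 (without unc5B MUT 3; paired 0.058 to 0.25 for the same libraries), for neo1 MUT against netrin-1 WT from 0.030 (without neo1 MUT 1) to 0.36 (without netrin-1 WT 1; paired 0.099 to 0.25), and for unc5B MUT against netrin-1 WT from 0.31 (without unc5B MUT 1) to 0.74 (without unc5B MUT 3; paired 0.35 to 0.62). The nuclear median ran from -0.37 to 0.091 for netrin-1 WT against control, -0.16 to 0.25 for unc5B MUT against control, -0.31 to 0.14 for neo1 MUT against control, -0.045 to 0.32 for unc5B MUT against netrin-1 WT, -0.060 to 0.26 for neo1 MUT against netrin-1 WT, -0.30 to 0.091 for neo1 MUT against unc5B MUT, and 0.43 to 0.49 for number 3. Of single members, Cox6c ran from -0.27 to 0.27 for unc5B MUT against control (0.0037 in the paired fit without unc5B MUT 3) and from -0.30 to 0.24 for neo1 MUT against netrin-1 WT. mt-Cytb ran from -0.22 to 0.041 for netrin-1 WT against control and from -0.10 to 0.059 for number 3, and mt-Nd1 from -0.37 to 0.0065 for number 3. The cause of these shifts was not tested. Small differences between groups in members that share reads with a copy are limited by how the estimator divided those reads.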
